A study of Homo sapiens with 4 samples.

Results

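MV4-11 cells carrying the first of a pair of hairpin RNAs labelled as profound RUNX1 knockdowns were set against MV4-11 cells carrying a control hairpin, gene by gene. The comparison covers 9598 of the 22357 genes represented by a probe set with 1 gene symbol, namely those whose log2 signal reached 4.5 in at least 1 of the 2 arrays. Where a gene had several probe sets, the brightest on average was taken. The members were selected on their level and not on their difference, but 313 of them passed through the profound 1 array alone and 272 through the control array alone, so the size of their difference is partly set by the filter. The other 12759 genes stayed below that level in both arrays.

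MV4-11 is a human leukaemia line of the monocytic kind, driven by a KMT2A-AFF1 fusion and an activating FLT3 duplication. The series asks how its expression responds to RUNX1 hairpins of different strength. The array labelled profound 1 holds RNA of cells given the first profound hairpin, the arrays labelled profound 2 and moderate hold RNA of cells given the other RUNX1 hairpins, and the control array holds RNA of cells given a hairpin against luciferase, a gene that human cells lack. All 4 cultures, the control included, received 3 µM doxycycline for 24 h, and each gave 1 array. The description field of the profound 1 sample names RUNX2 as the target, and that of profound 2 names RUNX3, whereas titles and genotypes name RUNX1, so every direction below is one between labels. The labels do not say how much RUNX1 was left, or whether transduced cells were selected or cloned.

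RUNX1 binds DNA together with its partner CBFB and controls genes of blood cell development, and leukaemia cells with KMT2A fusions are known to depend on it. Cells that leave G1 for S phase switch on genes bound by E2F factors and their partner TFDP1, which supply the DNA copying machinery. Genes of mitosis come on later, through a short element near their start (the cell cycle genes homology region, CHR) and the factor FOXM1. Cells that stop cycling lose both groups of transcripts. In the monocyte lineage, mature cells are known for their lysosomes and for presenting antigen on MHC class II.

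With 1 array a side there is no replicate check and no test, and genes are described by the size of their difference on the log2 scale, where 1 unit is 2-fold. Over 53617 probe sets the array medians lay between 3.07 and 3.09 log2 units, and every value is only as precise as a single array allows. As a yardstick, the difference between profound 2 and moderate, a pair that holds neither array compared here, had a robust SD (scaled median absolute deviation) of 0.25 in the dimmest of 6 level classes and 0.13 in the brightest, and 25 of 9598 genes (0.26%) differed at least 2-fold in it either way. That yardstick holds noise and any real difference of those hairpins together. All 11 measured markers of a monocytic leukaemia line passed the level filter, led by the lysozyme gene LYZ at 11.46 log2 units in profound 1 and 11.34 in control. Of the marker lists of other cell types, none had more than 2 members past the filter, and none of the 7 measured fibroblast markers did.

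The RUNX1 signal itself shows little. Its probe set is shared with LOC100506403, so it is no member, and it read 4.07 in profound 1, 4.04 in profound 2, 4.33 in moderate and 4.27 in control. The difference of profound 1 from control was -0.19, a signal 1.14-fold lower, against a robust SD of 0.29 between profound 2 and moderate over the 1298 genes of closest level. RUNX2, named in the description field, read 6.17, 6.33 and 6.16 in the arrays of profound 1, profound 2 and moderate hairpins, and 6.23 in control. RUNX3 was lower in both profound arrays, at 7.75 in profound 1 and 7.74 in profound 2, against 8.28 in moderate and 8.17 in control. CBFB read 9.28 in profound 1 and 9.29 in control.

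The profound 1 array was the one furthest from control, and its lower genes were brighter and more numerous than its higher ones. At 2-fold, 36 genes were higher (0.375% of those tested) and 62 lower (0.646%). At 1.5-fold, 284 were higher (2.96%) and 480 lower (5%). The robust SD of the difference was 0.27 for profound 1 minus control, against 0.17 for profound 2 minus control and 0.15 for moderate minus control, and the median over all genes was -0.01. Those 3 comparisons share the control array. The comparison with the moderate array does not use the control array, though it shares profound 1. There 168 genes were at least 1.5-fold higher in profound 1 (1.75%) and 364 lower (3.79%), so lower genes outnumbered higher ones again. Such an excess was not particular to profound 1. In profound 2 against moderate, 157 genes were 1.5-fold lower (1.64%) and 80 higher (0.834%). In moderate against control the counts were 50 lower (0.521%) and 51 higher (0.531%).

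The 36 higher genes had a median of 5.95 in profound 1 and 4.67 in control, and 16 of them lay below 4.5 in control. The 62 lower genes had a median of 6.07 in profound 1 and 7.22 in control, and 12 lay below 4.5 in profound 1. By level, 17 of the higher genes fell in the dimmest of the 6 classes and 2 in the brightest, whereas the lower genes numbered 10 and 7 in these classes and 19 in the second brightest. The lower genes differed from moderate by -0.45 to -1.42 (median -0.93). The higher genes differed from moderate by 0.09 to 2.03 (median 0.72). Both sets were picked by their value in profound 1, which this comparison uses again, so its sign is largely fixed by that choice. For some higher genes the moderate array stood almost as high as profound 1. The plot of difference against level shows both sides.

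**Figure D1:**
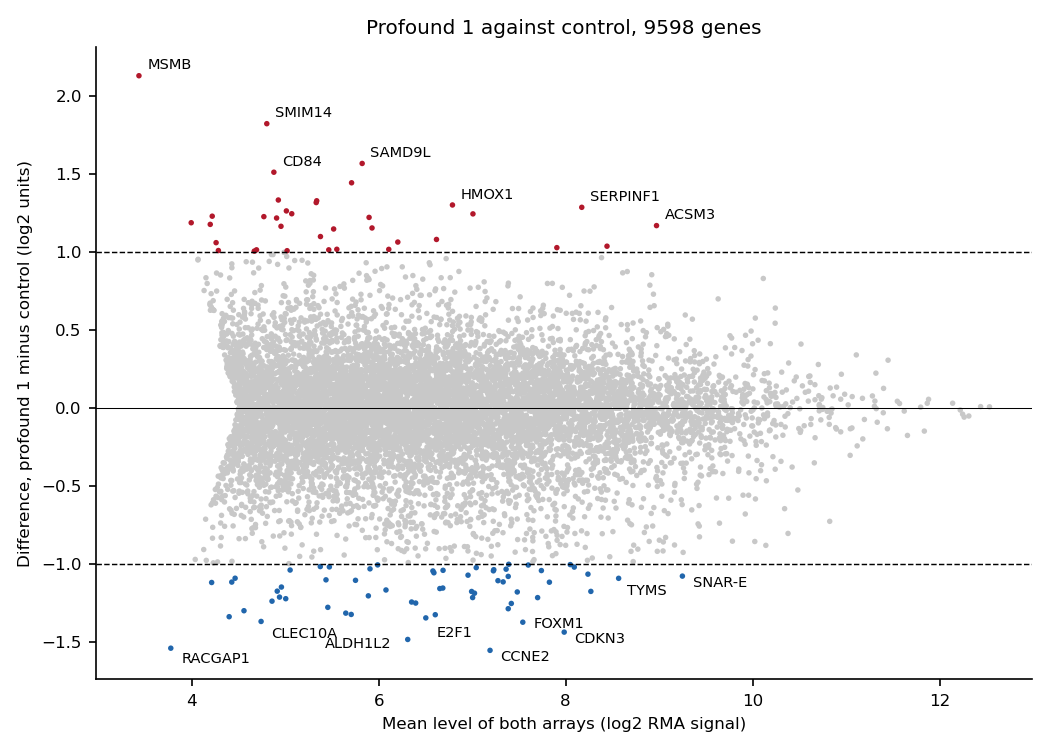
Difference of profound 1 minus control (vertical, log2 units) against the mean level of both arrays (horizontal, log2 RMA signal) for 9598 genes, 1 point a gene. Red points are at least 2-fold higher in profound 1 (36 genes) and blue points at least 2-fold lower (62 genes), the dashed lines mark 2-fold, and the blue points stand more often among the bright genes than the red ones.

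Of the 169 genes 1.5-fold lower that stand in any list examined, most were in those of the cell cycle. The 7 cell-cycle lists (entry into S phase, origin licensing, replication forks, homologous recombination, mitotic kinases, kinetochore, spindle) have 188 tested members of 199 listed. In profound 1, 126 of them were at least 1.5-fold lower than control and 0 were higher, against the 5% and 2.96% of all tested genes given above, and 26 were at least 2-fold lower. Their median difference was -0.70, against -0.01 over all genes. Against moderate the median was -0.57, with 90 members lower and 0 higher. Of the 62 genes that were 2-fold lower, 28 (45.2%) belong to these lists or to those of nucleotide synthesis and histones, which together make up 230 of the 9598 tested genes (2.40%). Of the 480 genes that were 1.5-fold lower, 141 (29.4%) do, so most of the lower genes stand outside these lists.

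Neither of the other RUNX1 hairpins showed this to the same extent. The 188 genes had a median difference from control of -0.13 in profound 2, where 2 members were 1.5-fold lower (1.11% of all tested genes were), and of -0.12 in moderate, where 3 were (0.521% of all tested genes). Profound 1 was the lowest of the 4 arrays for 176 of the 188 (93.6%), as it was for 3269 of all 9598 tested genes (34.1%). In RNA of whole cultures, fewer cycling cells and less of these transcripts per cell cannot be told apart.

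**Figure D2:**
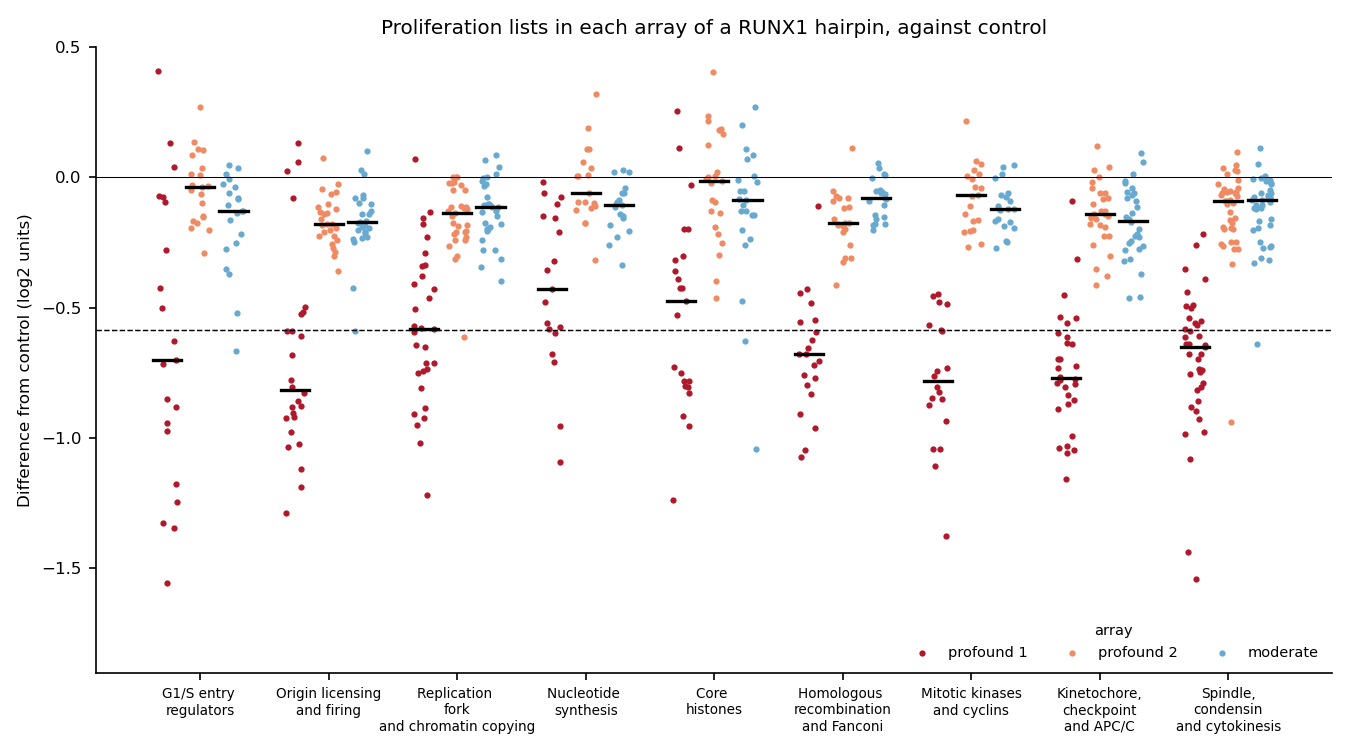
Difference from control (vertical, log2 units) of every tested member of 9 proliferation lists, in the arrays labelled profound 1 (red), profound 2 (orange) and moderate (blue), each point a gene and each bar the list's median; all 3 share the control array. The dashed line marks 1.5-fold lower, and the profound 1 medians lie between -0.58 and -0.82 in the 7 cell-cycle lists, while those of the other arrays lie between -0.18 and -0.01 in all 9.

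Entry into S phase is driven by cyclin E with its kinase and by E2F factors. CCNE2, which encodes cyclin E2, had the largest difference of all tested genes on the lower side, at 6.41 in profound 1, 7.94 in profound 2, 7.45 in moderate and 7.97 in control (difference -1.55). E2F1, an activating E2F factor, read 5.83 in profound 1, 7.11 in profound 2, 6.92 in moderate and 7.18 in control (-1.35). TFDP1, its DNA-binding partner, read 5.94 in profound 1, 7.28 in profound 2, 6.60 in moderate and 7.27 in control (-1.33). For all 3 genes profound 1 was the low array, and moderate lay between it and the other arrays. The repressive family members E2F7 and E2F8 differed by -1.24 and -1.18, and CCNE1 by -0.97. Of the 21 tested members of the list, 12 were 1.5-fold lower and 0 higher, with a median of -0.70. On the other side stood CDK6, the kinase of D-type cyclins, at 9.49 in profound 1 and 9.09 in control (0.41), with profound 2 at 9.36 and moderate at 9.13.

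Before S phase, origins are licensed by loading the MCM helicase and are then fired. CDC6, a loader of that helicase, read 6.74 in profound 1, 7.91 in profound 2, 7.60 in moderate and 8.03 in control (-1.29). The GINS subunit gene GINS2 read 6.43 in profound 1, 7.44 in profound 2, 7.45 in moderate and 7.62 in control (-1.19). MCM10, an initiation factor, differed by -1.12, the origin-firing kinase gene CDC7 by -1.03 and TICRR, which brings firing factors to the origin, by -0.98. This list had the most negative median of those examined, -0.82, with 19 of 26 members 1.5-fold lower. The origin recognition subunits ORC2 (0.13), ORC3 (0.02) and ORC4 (0.06) stayed at the control level.

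At the replication fork, 15 of 31 members were 1.5-fold lower and the median was -0.58. CLSPN, an adaptor of the fork checkpoint, read 7.09 in profound 1, 8.10 in profound 2, 7.91 in moderate and 8.31 in control (-1.22). FEN1, the nuclease that trims Okazaki fragments, read 7.58 in profound 1, 8.29 in profound 2, 8.40 in moderate and 8.60 in control (-1.02). The polymerase subunit genes POLA1 (-0.92) and POLE2 (-0.91), the histone chaperone subunit CHAF1B (-0.95) and the helicase-nuclease DNA2 (-0.89) lay close behind, whereas the polymerase subunit POLD3 did not differ beyond the yardstick (0.07).

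Of the genes that make nucleotides and histones for DNA copying, a minority was 1.5-fold lower. TYMS, the thymidylate synthase, read 8.02 in profound 1, 9.02 in profound 2, 9.01 in moderate and 9.11 in control (-1.09), and TK1, the cytosolic thymidine kinase, 7.99 in profound 1 against 8.95 in control (-0.95). The ribonucleotide reductase genes RRM2 and RRM1 differed by -0.71 and -0.58. In all, 5 of 19 nucleotide synthesis genes were 1.5-fold lower, with a median of -0.43. Genes of the core histone list, which also holds the linker histone gene H1-5, had a median of -0.47, with 10 of 23 members lower and 0 higher. H2BC17, which passed the level filter through the control array alone, read 4.24 in profound 1, 5.26 in profound 2, 4.85 in moderate and 5.48 in control (-1.24). Histone genes are near-identical copies of each other, so single members are uncertain, but the bright H2AC21 (9.98 in profound 1, 10.78 in control) pointed the same way. So did the bright linker histone gene H1-5 (9.02 in profound 1, 9.85 in control).

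Of 21 tested genes of homologous recombination and the Fanconi pathway, 15 were 1.5-fold lower (median -0.68). The chromatin remodeller HELLS read 6.42 in profound 1, 7.18 in profound 2, 7.29 in moderate and 7.49 in control (-1.07), and the exonuclease EXO1 read 6.70 in profound 1, 7.57 in profound 2, 7.66 in moderate and 7.75 in control (-1.04). BLM, a helicase, differed by -0.96. SMC1A, a subunit of the cohesin ring that holds sister chromatids, was outside the lists and stood at 7.71 in profound 1, 8.59 in profound 2, 8.53 in moderate and 8.77 in control (-1.07).

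Genes of mitosis were lower as well. FOXM1, a transcription factor of mitotic genes, read 6.85 in profound 1, 8.12 in profound 2, 7.98 in moderate and 8.23 in control (-1.37). PLK4, the kinase that starts centriole duplication, read 6.72 in profound 1, 7.62 in profound 2, 7.66 in moderate and 7.83 in control (-1.11). CDK1, the master kinase of mitosis, read 7.68 in profound 1, 8.55 in profound 2, 8.44 in moderate and 8.56 in control (-0.87). Among mitotic kinases and cyclins, 15 of 20 were 1.5-fold lower (median -0.78).

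At the kinetochore, where chromosomes meet the spindle, 24 of 30 members were 1.5-fold lower (median -0.77). SPC25, a subunit of the microtubule-binding NDC80 complex, read 6.11 in profound 1, 7.04 in profound 2, 7.11 in moderate and 7.26 in control (-1.16), and the centromere protein genes CENPM (-1.06) and CENPK (-1.04) were close to it. Of the spindle, condensin and cytokinesis genes, 26 of 39 were lower (median -0.65). CDKN3, a phosphatase that acts on cyclin-dependent kinases, read 7.27 in profound 1, 8.73 in profound 2, 8.58 in moderate and 8.70 in control (-1.44). The kinesin KIF18A, which sets microtubule length, differed by -1.08, and the spindle assembly factor TPX2 read 8.79 in profound 1 and 9.72 in control (-0.93). RACGAP1, a cytokinesis regulator, differed by -1.54 but from a low level, at 3.01 in profound 1, 3.61 in profound 2, 3.91 in moderate and 4.55 in control, and it passed the level filter through the control array alone.

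Inhibitors of cyclin-dependent kinases and most targets of p53 stayed near control. All 4 tested inhibitors differed by less than the yardstick. CDKN1A, which encodes p21, read 5.64 in profound 1, 5.62 in profound 2, 5.56 in moderate and 5.59 in control, and CDKN1B, which encodes p27, read 8.96 in profound 1 and 8.97 in control. Of 18 tested p53 targets, 2 were 1.5-fold lower (11.1%, against 5% of all tested genes) and 0 higher (median -0.10). Those were the stress sensor SESN2 (-0.72) and the kinase PLK3 (-0.66). Among 13 members of the BCL2 family, 0 reached 1.5-fold either way, against 7.96% of all tested genes. The lowest were BAX (-0.44), also in the p53 list, and BCL2 (-0.39), and the highest was the mitophagy receptor BNIP3L (0.28).

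The promoters of these genes are shown because E2F and CHR elements mark the S phase and mitosis groups. Sequences are from RefSeq (build GRCh38.p14), from 250 bases before to 50 after the first listed start of a gene. From each, 120 bases are printed 5′ to 3′ on the strand of the gene. Only the letters of the motif named with a stretch are in capitals. Matches of the other motifs searched stay in lower case. These are CCAAT letters in the E2F1, CDKN3, KIF18A and TICRR stretches, and CHR letters in the KIF18A stretch. E2F1 (chr20:33686356-33686475, minus strand) and TFDP1 (chr13:113584577-113584696, plus strand) are shown as examples of lower genes that hold E2F letters.

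E2F1: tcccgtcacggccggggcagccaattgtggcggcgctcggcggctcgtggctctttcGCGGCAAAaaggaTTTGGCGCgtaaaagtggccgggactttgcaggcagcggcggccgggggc
TFDP1: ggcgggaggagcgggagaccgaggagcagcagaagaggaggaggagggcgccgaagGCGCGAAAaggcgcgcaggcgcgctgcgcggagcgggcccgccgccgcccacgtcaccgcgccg

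CDKN3 (chr14:54396780-54396899, plus strand) was lower and holds CHR letters, and SAMD9L (chr7:93148459-93148578, minus strand), an interferon-induced gene that was higher in profound 1 by 1.57, holds the same letters.

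CDKN3: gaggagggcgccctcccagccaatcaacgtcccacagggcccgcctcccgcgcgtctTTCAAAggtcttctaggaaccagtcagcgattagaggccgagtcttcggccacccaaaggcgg
SAMD9L: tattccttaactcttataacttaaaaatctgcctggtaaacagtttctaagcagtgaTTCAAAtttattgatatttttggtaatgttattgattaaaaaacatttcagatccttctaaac

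RUNX letters stood in the promoters of KIF18A (chr11:28108127-28108246, minus strand) and TICRR (chr15:89575232-89575351, plus strand), both lower in profound 1.

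KIF18A: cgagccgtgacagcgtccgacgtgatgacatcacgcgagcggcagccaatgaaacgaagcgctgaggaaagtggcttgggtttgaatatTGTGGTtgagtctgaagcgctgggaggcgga
TICRR: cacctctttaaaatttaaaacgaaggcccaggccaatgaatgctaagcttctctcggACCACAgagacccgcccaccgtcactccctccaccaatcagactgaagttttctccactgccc

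Motifs were searched on both strands as plain letters. E2F stood for TTTCCCGC, TTTGGCGC, TTTCGCGC or TTTGCCGC, CHR for TTTGAA, the CCAAT box for those letters, RUNX for TGTGGT and the ATF4 element for TGATGNAA, none of which contains another. E2F letters were present in 41.5% of the 65 promoters matched for the entry, licensing and fork lists (78 tested genes) and in 9.46% of the 74 matched for the mitosis lists (89 tested genes), against 6% of the 7600 matched for the 9598 tested genes and 3.33% of all 27305 promoters of the table. CHR letters were in 60.8% of the mitosis promoters and 6.15% of the S phase promoters, against 9.70% of tested genes and 15.4% of all. The CCAAT box was in 70.3% and 50.8% of these groups, against 37.6% of tested genes and 35.7% of all. RUNX letters were in 12.3% of the S phase and 8.11% of the mitosis promoters, against 9.57% of tested genes and 13.1% of all, so the S phase share lies above the first and below the second.

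The median GC content was 66% in S phase and 62.5% in mitosis promoters, against 65.3% in those of tested genes and 58.3% in all. The list shares run over the tested members of the lists, whether lower or not, and describe the lists rather than the array. Promoters were matched for 370 of the 480 genes 1.5-fold lower, which include cell-cycle list members, and 207 of the 284 higher. RUNX letters were in 8.11% of these lower and 12.1% of these higher promoters, against 9.57% of tested genes. E2F letters were in 16.5% of the lower and 3.38% of the higher, against 6% of tested genes. CHR letters were in 21.6% and 9.66%, against 9.70% of tested genes. These shares were not tested, and a match in letters is not a bound site.

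**Figure D3:**
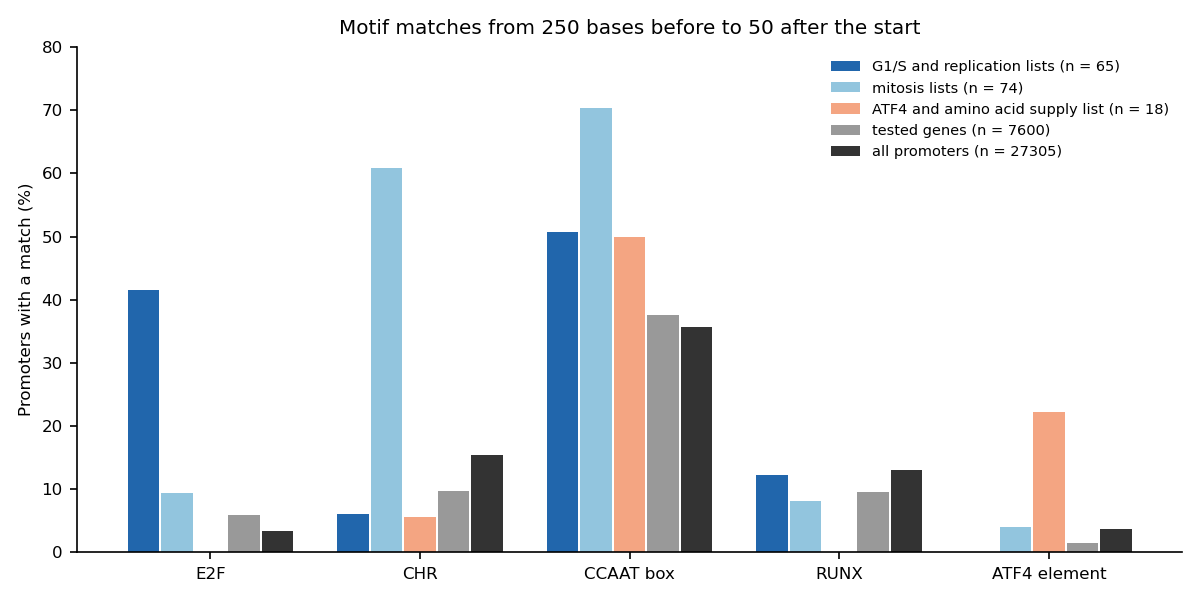
Share of promoters (vertical, percent) with at least 1 match of each motif on either strand, for genes of the S phase lists (n = 65), the mitosis lists (n = 74), the ATF4 and amino acid supply list (n = 18), all tested genes (n = 7600) and all promoters of the table (n = 27305). E2F letters stand highest in the S phase lists (41.5%) and CHR letters in the mitosis lists (60.8%), while RUNX letters are at 13.1% or less in every group.

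Outside the cell cycle, a list of ATF4 targets and amino acid supply genes stood lower in part. ATF4 is the transcription factor that raises such genes when amino acids are short. Of 21 tested members, 7 were 1.5-fold lower and 1 higher (median -0.40), against 5% and 2.96% of all tested genes. ATF4 element letters were in the promoters of 4 of the 18 matched members (22.2%), against 1.57% of tested genes and 3.67% of all promoters. That share covers matched members whether lower or not, and does not tie the letters to the lower genes named here. PHGDH, the first enzyme of serine synthesis, read 5.77 in profound 1, 6.63 in profound 2, 6.54 in moderate and 7.02 in control (-1.25). PSAT1, the second enzyme of that route, read 9.36 in profound 1, 10.29 in profound 2, 9.88 in moderate and 10.21 in control (-0.85). The glutamine transporter SLC1A5 read 8.23 in profound 1, 9.09 in profound 2, 9.11 in moderate and 9.21 in control (-0.99). The proline enzyme PYCR1 (-0.82) and the asparagine synthetase ASNS (-0.76) belonged to the same side.

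ALDH1L2, a mitochondrial folate enzyme outside the lists, read 5.57 in profound 1, 6.54 in profound 2, 6.79 in moderate and 7.05 in control (-1.48), the third largest difference on the lower side. The 1 member of the ATF4 list that was 1.5-fold higher was SLC7A11, the cystine importer. It read 6.82 in profound 1, 5.48 in profound 2, 6.44 in moderate and 6.09 in control (0.72). DDIT4, another member, also lay above control (0.51), and passed the level filter through profound 1 alone. Of 19 aminoacyl-tRNA synthetase genes, which charge tRNAs with amino acids, 1 was lower, AARS1 (-0.63). That is 5.26%, against 5% of all tested genes, and the median was -0.14.

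Lipid synthesis genes were lower in part. The stearoyl-CoA desaturase SCD read 8.24 in profound 1, 8.92 in profound 2, 8.96 in moderate and 9.16 in control (-0.92), and FADS2, another desaturase, read 4.81 in profound 1, 5.41 in profound 2, 5.67 in moderate and 5.76 in control (-0.96). Both were 1.5-fold lower, among 8 tested fatty acid genes with a median of -0.51 (25%, against 5% of all tested genes). ME1, a cytosolic malic enzyme that makes NADPH, was the exception, at 5.38 in profound 1, 4.72 in profound 2, 4.503 in moderate and 4.16 in control (1.23), and passed the level filter through profound 1 alone. In cholesterol synthesis 2 of 16 members were lower (12.5%, against 5% of all tested genes, median -0.35). They were the squalene epoxidase SQLE, at 7.10 in profound 1, 7.97 in profound 2, 8.05 in moderate and 8.10 in control (-1.01), and the isomerase EBP (-0.64).

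Genes of ribosomes, cytosolic heat shock and energy metabolism stayed mostly near control. Genes of MYC and ribosome biogenesis had a median of -0.16 and 0 of 27 members at 1.5-fold either way, against 7.96% of all tested genes. The nucleolar factor NIP7 was at -0.50 and MXI1, a MYC antagonist, at 0.36. MRTO4, a ribosome assembly factor outside the list, was lower, at 6.89 in profound 1, 8.11 in profound 2, 7.90 in moderate and 8.07 in control (-1.18). The 13 ribosomal protein genes had a median of -0.06, the 7 heat shock genes -0.10, the 17 glycolysis and hypoxia genes -0.06 and the 19 oxidative phosphorylation genes 0.06, with 0 members of these at 1.5-fold. Of 16 genes of endoplasmic reticulum stress, MANF (-0.73) and SDF2L1 (-0.70) were lower (12.5%, against 5% of all tested genes) and EDEM1 (0.66) was higher (6.25%, against 2.96%). The 9 housekeeping genes had a median of -0.12, with HPRT1, which salvages purines, the lowest at -0.50.

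The genes higher in profound 1 came from more varied groups. MSMB, which encodes a secreted protein of the prostate, had the largest difference (2.13), but it read 4.5004 in profound 1 and barely passed the level filter, against 2.46 in profound 2, 2.47 in moderate and 2.37 in control. SMIM14, a small membrane protein gene, read 5.71 in profound 1, 4.79 in profound 2, 4.73 in moderate and 3.89 in control (1.82). GALR2, a galanin receptor gene, read 6.43 in profound 1, 4.83 in profound 2, 5.19 in moderate and 4.99 in control (1.44). In all 3 profound 1 stood highest, whereas for SMIM14 the other RUNX1 hairpins also lay above control.

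**Figure D4:**
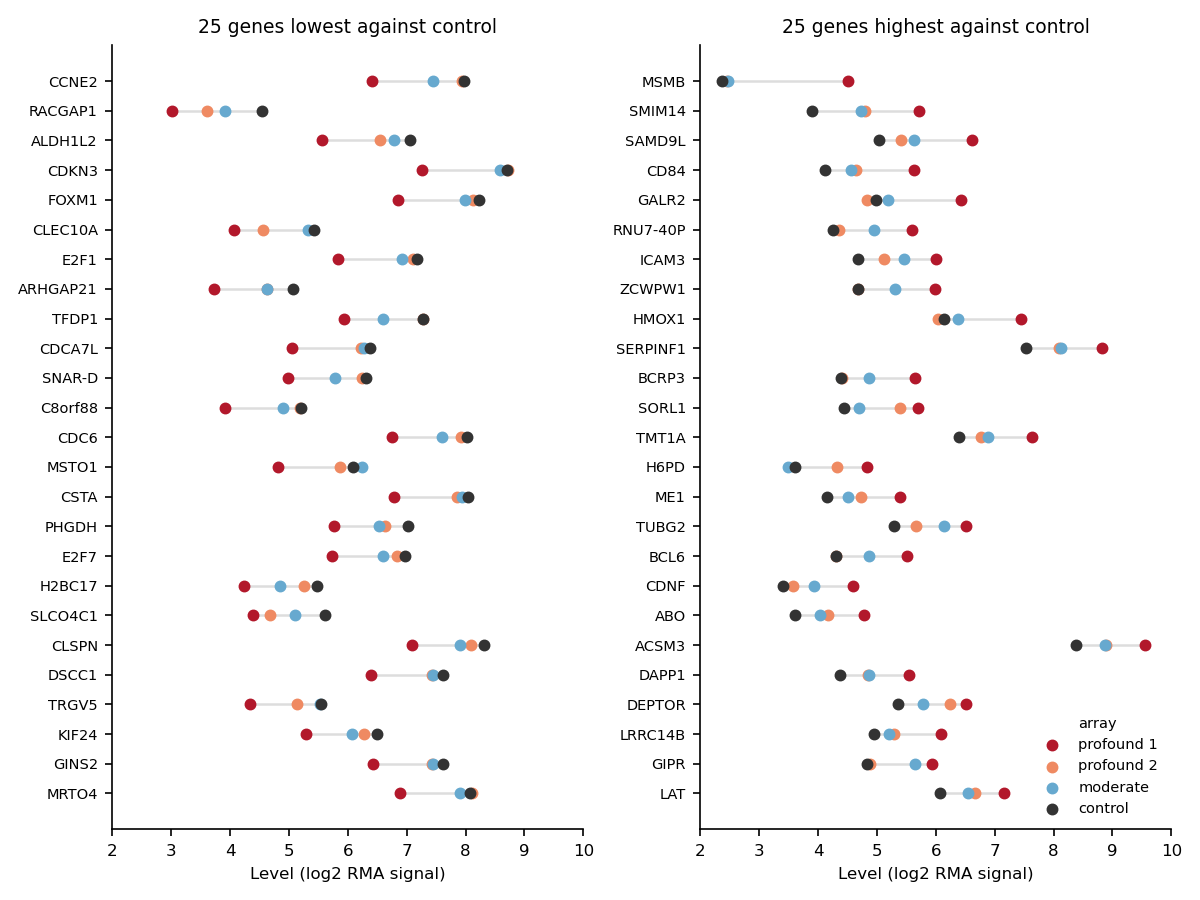
Level (horizontal, log2 RMA signal) in each of the 4 arrays for the 25 genes lowest and the 25 genes highest in profound 1 against control, 1 point an array, with the largest difference at the top. Where arrays read nearly the same, the control point covers the others. On the lower side the profound 1 point mostly stands apart from the other 3, while on the higher side the points of moderate and profound 2 often lie between profound 1 and control.

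Brighter genes with a large difference were SERPINF1, ACSM3 and CES1. SERPINF1, a secreted serpin, read 8.82 in profound 1, 8.09 in profound 2, 8.12 in moderate and 7.53 in control (1.29). ACSM3, a mitochondrial acyl-CoA synthetase gene, read 9.56 in profound 1, 8.89 in profound 2, 8.87 in moderate and 8.39 in control (1.17). CES1, a carboxylesterase of monocytes, read 8.96 in profound 1, 8.17 in profound 2, 8.87 in moderate and 7.92 in control (1.04), so that moderate stood nearly as high as profound 1. For each of these 3 the control array was the lowest of the 4. Among the 1956 genes of 8 or more in either array, 4 were 2-fold higher and 15 lower, and 39 were 1.5-fold higher and 120 lower.

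Redox defence was represented by HMOX1, the haem oxygenase, at 7.44 in profound 1, 6.04 in profound 2, 6.38 in moderate and 6.14 in control (1.301). With it stood SLC7A11, given above, and the glutathione reductase GSR, at 8.55 in profound 1, 8.31 in profound 2, 8.13 in moderate and 7.94 in control (0.61). These were 3 of 22 tested members (13.6%, against 2.96% of all tested genes), and the list's median was 0.14 with 0 members 1.5-fold lower. H6PD, an NADPH-producing enzyme of the endoplasmic reticulum outside the list, read 4.83 in profound 1, 4.31 in profound 2, 3.49 in moderate and 3.60 in control (1.23).

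Of genes linked to FOXO factors or to growth factor withdrawal, 5 of 17 were 1.5-fold higher (29.4%, against 2.96% of all tested genes). In that list 0 were lower, and the median was 0.16. BCL6, a transcriptional repressor, read 5.52 in profound 1, 4.30 in profound 2, 4.86 in moderate and 4.30 in control (1.22). DEPTOR, an inhibitor of the mTOR kinase, read 6.51 in profound 1, 6.23 in profound 2, 5.79 in moderate and 5.35 in control (1.15). The ubiquitin ligase subunit FBXO32 (0.99), the stress sensor SESN3 (0.95) and CREBRF (0.90) were the others. BCL6, FBXO32 and CREBRF lay below 4.5 in control and passed the level filter through profound 1 alone, so for those 3 of the 5 a difference was in part required, and the count is no support for the list. KLF2, a quiescence factor of lymphocytes, read 4.58 in profound 1 and 5.04 in control (-0.46). Among the alpha-arrestins, adaptors that remove nutrient transporters from the membrane, 2 of 5 were higher (median 0.57), too few to set against the 2.96%. TXNIP read 8.63 in profound 1, 8.45 in profound 2, 7.97 in moderate and 7.89 in control (0.75), and ARRDC3 read 5.38 in profound 1, 3.78 in profound 2, 4.97 in moderate and 4.46 in control (0.92), so profound 2 was the lowest array for the second gene, which passed the level filter through profound 1 alone.

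Lysosomal genes stood slightly higher, with 4 of 23 members 1.5-fold higher (17.4%, against 2.96% of all tested genes), 0 lower and a median of 0.25. MCOLN2, a lysosomal cation channel, read 5.05 in profound 1, 4.96 in profound 2, 4.46 in moderate and 4.11 in control (0.94), and passed the level filter through profound 1 alone. The membrane protein SCARB2 read 6.28 in profound 1, 5.92 in profound 2, 5.44 in moderate and 5.46 in control (0.82). PSAP, the precursor of the saposins that help degrade sphingolipids, read 8.35 in profound 1, 8.09 in profound 2, 7.89 in moderate and 7.58 in control (0.77). In these genes profound 2 stood between profound 1 and control. PLD4, a lysosomal exonuclease gene outside the list, read 9.04 in profound 1, 8.41 in profound 2, 8.71 in moderate and 8.18 in control (0.87), and the autophagy genes BECN1 (0.80) and NBR1 (0.80) were among the bright genes of largest difference.

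Of genes of monocytes and macrophages, a minority was higher. CES1 (1.04), LRRC25 (1.02), MS4A7 (0.80) and CD68 (0.70) were the 4 of 15 tested members that were 1.5-fold higher (26.7%, against 2.96% of all tested genes), and 0 were lower. LRRC25, a leucine-rich repeat receptor of myeloid cells, read 6.06 in profound 1, 5.84 in profound 2, 5.35 in moderate and 5.04 in control. CD68, a lysosomal protein of macrophages, read 9.98 in profound 1, 9.91 in profound 2, 9.14 in moderate and 9.28 in control. The list's median was 0.17 in profound 1, 0.19 in profound 2 and 0.30 in moderate, all against the same control array, so the list as a whole was not furthest from control in profound 1. LYZ, CSF1R, SPI1, FCER1G and CD4 differed from control by between -0.11 and 0.17.

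Antigen presentation genes were 1.5-fold higher in 2 of 5 tested members, too few to set against the 2.96% of all tested genes. HLA-DRA, the alpha chain of HLA-DR, read 7.19 in profound 1, 7.31 in profound 2, 6.85 in moderate and 6.44 in control (0.74), and CIITA, the master activator of MHC class II genes, read 5.35 in profound 1, 4.94 in profound 2, 4.95 in moderate and 4.64 in control (0.72). CD74, the invariant chain, differed by 0.51 and HLA-DQA1 by -0.21. The list's median was 0.51 in profound 1, 0.18 in profound 2 and 0.31 in moderate.

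The surface proteins CD84, ICAM3 and CD38 were 2-fold higher. CD84, a receptor of the SLAM family, read 5.63 in profound 1, 4.64 in profound 2, 4.56 in moderate and 4.12 in control (1.51). ICAM3, an adhesion molecule of resting leukocytes, read 6.001 in profound 1, 5.11 in profound 2, 5.47 in moderate and 4.67 in control (1.33). CD38, an ectoenzyme that consumes NAD, read 4.79 in profound 1, 5.23 in profound 2, 3.73 in moderate and 3.78 in control (1.01). CD84 and ICAM3 were highest in profound 1, while CD38 was highest in profound 2. CD84 and CD38 lay below 4.5 in control and passed the level filter through profound 1 alone, and CD38 no longer reached 2-fold after cyclic loess. Of all tested genes, 2.96% were 1.5-fold higher and 5% lower. Over the lists of these proteins, 3 of 12 surface antigens were 1.5-fold higher and 1 lower (25% and 8.33%, median 0.27). Of 13 adhesion genes, 2 were higher and 1 lower (15.4% and 7.69%, median 0.22), so the lower shares were near that of all genes. The lower ones were CD72 (-0.77), which read 3.84 in profound 1, 4.10 in profound 2, 5.25 in moderate and 4.61 in control and passed through the control array alone, and the integrin ITGB7 (-0.60).

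Interferon-response genes had a median of 0.22, with 1 of 16 tested members 1.5-fold higher and 1 lower (6.25% each, against 2.96% and 5% of all tested genes). SAMD9L read 6.61 in profound 1, 5.40 in profound 2, 5.62 in moderate and 5.04 in control (1.57), while its neighbour and paralogue SAMD9 read 6.76 in profound 1, 7.003 in profound 2, 7.36 in moderate and 7.43 in control (-0.67). The pair thus differed in opposite directions. The classical target ISG15 differed by 0.43 and IFI6 by -0.40.

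Some receptors and signalling genes of immature or inflammatory cells were lower. KIT, the stem cell factor receptor, read 4.30 in profound 1, 4.42 in profound 2, 4.59 in moderate and 5.07 in control (-0.77), and passed the filter through the control array alone. It was the 1 at 1.5-fold of 5 tested stem and progenitor genes, which are too few to set against all tested genes. The median of the stem and progenitor list was -0.33. IL7R, the interleukin 7 receptor, read 5.94 in profound 1, 6.27 in profound 2, 7.14 in moderate and 6.84 in control (-0.90). CCR2, the chemokine receptor of classical monocytes, read 6.58 in profound 1, 7.49 in profound 2, 7.34 in moderate and 7.21 in control (-0.64). Those were the 3 of 26 cytokine receptor genes that were 1.5-fold lower (11.5%, against 5% of all tested genes). The 1 higher gene was CSF2RA, the GM-CSF receptor chain (0.64). As a whole that list was not lower, with 16 of 26 members above 0 and a median of 0.13. CLEC10A, a lectin of macrophages and dendritic cells, read 4.06 in profound 1, 4.56 in profound 2, 5.32 in moderate and 5.43 in control (-1.37), and passed the filter through the control array alone. Of the 7 tested lectin and Siglec genes it was the 1 lower, and CLEC12A (0.60), a lectin of myeloid cells, was the 1 higher. These 7 are too few to set against the 5% and 2.96% of all tested genes.

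KIT and CLEC10A are also markers of mast cells and of dendritic cells, and IL7R of lymphocytes. The summed signal of the measured mast cell markers was 6.13 in profound 1 and 6.60 in control on the log2 scale, with 2 of 6 past the level filter. That of the dendritic markers was 7.98 in both arrays, with 2 of 9 past it, and that of the T and NK markers was 7.71 in profound 1 and 8.07 in control, with 2 of 11 past it. What share other cells have in these values was not tested.

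Signalling below FLT3 and inflammatory signalling showed single lower genes. PIM1, a kinase induced by STAT5, read 6.76 in profound 1, 7.37 in profound 2, 7.40 in moderate and 7.65 in control (-0.89). EGR1, an immediate early factor, read 6.35 in profound 1, 6.51 in profound 2, 6.75 in moderate and 7.03 in control (-0.68). With ETV4 (-0.66), which passed the filter through the control array alone, they were 3 of 15 tested members (20%, against 5% of all tested genes), and the median was -0.13. TNF, the inflammatory cytokine, read 6.93 in profound 1, 6.99 in profound 2, 7.69 in moderate and 7.73 in control (-0.80). TNFAIP3, another gene of the NF-kB and inflammation list, read 5.66 in profound 1, 5.54 in profound 2, 6.32 in moderate and 6.28 in control (-0.63). For both genes profound 1 and profound 2 lay below moderate and control. The other 14 of 16 genes of NF-kB and inflammation stayed within 1.5-fold, so 12.5% were lower, against 5% of all tested genes.

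The measured part of the line's identity programme stayed within 1.5-fold of control. Of 16 listed genes of the HOXA and MEIS programme that KMT2A fusions maintain, 9 were measured, so the values do not cover the whole programme. Among those 9, 0 were at 1.5-fold, too few genes to set against the 7.96% of all tested genes. Their median was 0.04, with MEIS1 the lowest at -0.33, CDK6 the highest at 0.41, FLT3 at 0.03 and MYB at 0.15. Of 15 myeloid transcription factors, EGR1 alone was 1.5-fold lower (6.67%, near the 5% of all tested genes). LYL1, a factor of early blood cells, was at 0.58. Among granule genes, which mark the granulocyte line, SLPI (1.01) was the 1 of 12 that was 1.5-fold higher (8.33%, against 2.96% of all tested genes). SLPI passed the filter through profound 1 alone. The bright protease genes ELANE (0.41) and CTSG (-0.56) differed in opposite directions. Toll-like receptors and their adaptors had 0 of 8 members at 1.5-fold, again too few genes to set against the 7.96%.

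**Figure D5:**
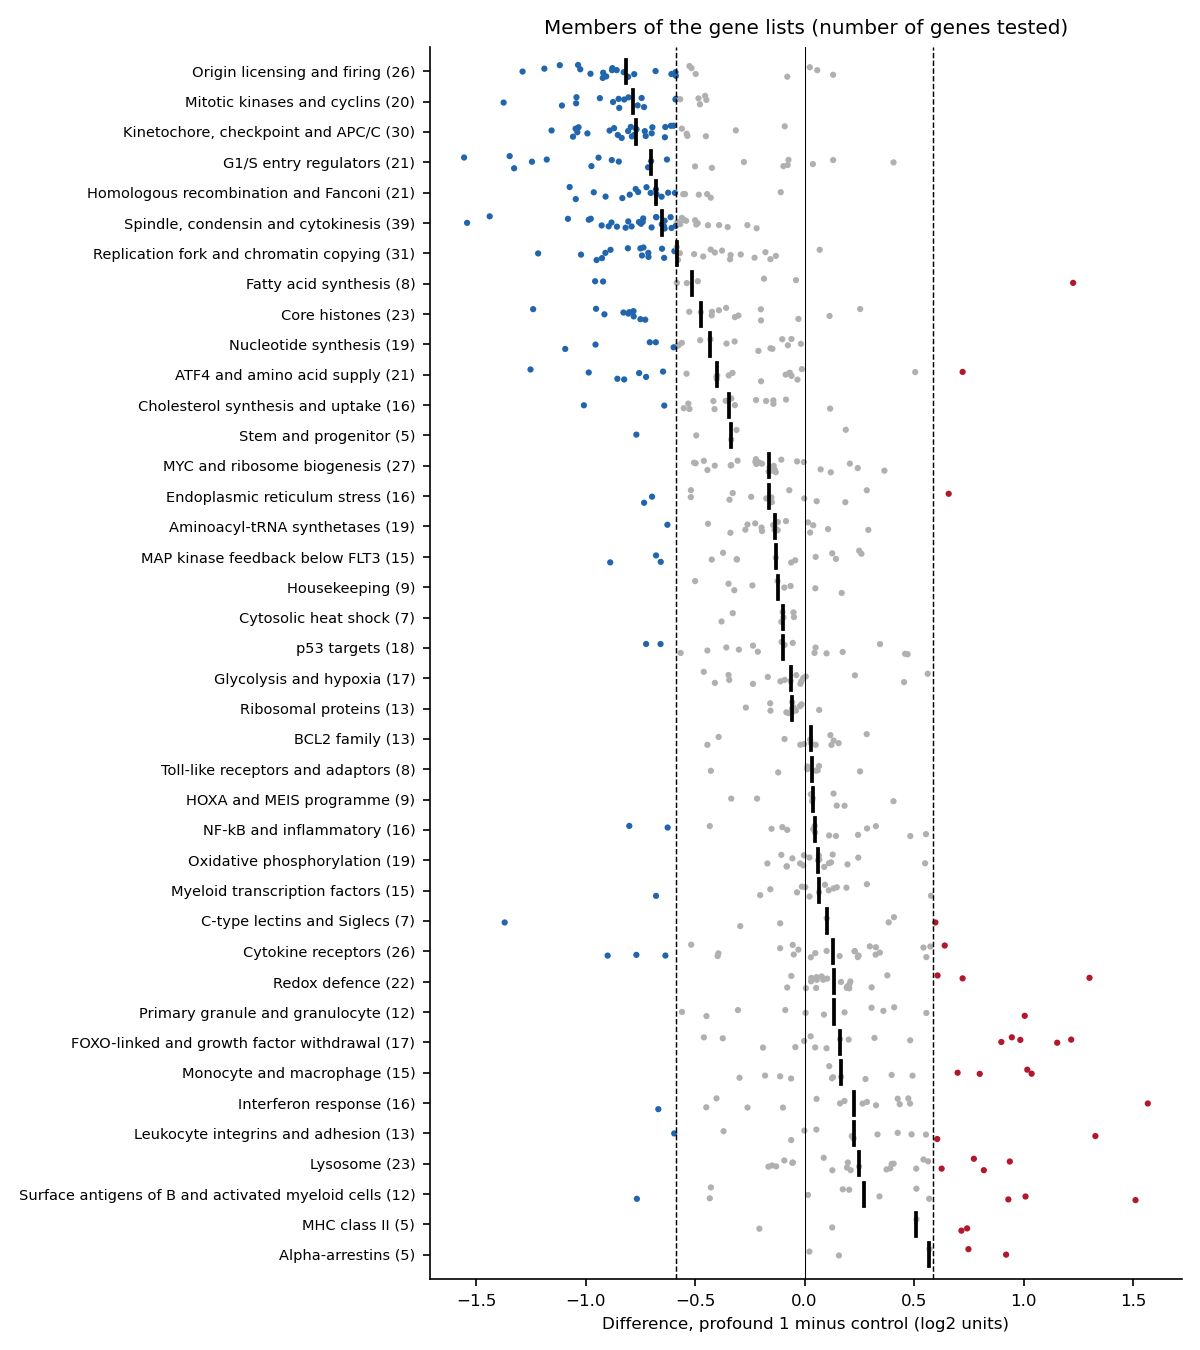
Difference of profound 1 minus control (horizontal, log2 units) for the tested members of the lists with at least 5 of them, 1 point a gene, with the list's median as a bar and the number tested in brackets. Dashed lines mark 1.5-fold, blue points are lower and red points higher than that, and the lists of the cell cycle stand at the top with medians between -0.58 and -0.82, while the alpha-arrestins stand at the bottom with 0.57.

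By class of transcript, 53 of 8741 protein-coding genes were 2-fold lower and 33 higher, as were 0 of 152 microRNA genes either way. SNAR-E and SNAR-D, small RNAs of a near-identical family whose probes may not tell members apart, were lower. SNAR-E read 8.71 in profound 1, 9.83 in profound 2, 9.26 in moderate and 9.79 in control (-1.08), and SNAR-D read 4.99 in profound 1, 6.24 in profound 2, 5.77 in moderate and 6.31 in control (-1.32). SNORA38B, a small nucleolar RNA, read 8.87 in profound 1, 9.27 in profound 2, 7.02 in moderate and 7.90 in control (0.96), and the widest gap there was between profound 2 and moderate. Of 107 small nucleolar RNA genes, 3 were 2-fold lower and 0 higher, against 0.646% and 0.375% of all tested genes.

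Values near the limits were continuous. Just inside the level limit lay MIR4644 (4.50025 in control), MSMB (given above) and ZNF343 (4.5004 in profound 1). Just outside it lay TGFBR3L (4.49958 in profound 1), GNG13 (4.49937 in control) and DEFA4 (4.49903 in profound 1). The 2-fold limit fell between SLPI (1.006) and AOAH (0.997) on the higher side, and between TMPO-AS1 (-1.003) and TYMSOS (-0.998) on the lower side. Of the genes past 1.5-fold, 12 had another probe set of sufficient level, 28 in all, but 13 of these carried the same values as the one used. Among the rest were 13 distinct sets of values, for 10 genes, and the sign was opposite in 1 of them, for ATF7IP2 (0.63 in the probe set used and -0.09 in the other).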

How the data were processed

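The deposited table holds log2 signals of 53617 probe sets on 4 whole-transcript arrays. Per the submitters' processing notes, the authors used RMA, Affymetrix Expression Console 1.3.1 and Transcriptome Analysis Console 1.0, while settings and genome build were not given in the sources used here. RMA equalises the distributions of the arrays, so a shift of most genes one way would not be seen, and it compresses differences of dim probe sets. Groups follow the genotype labels, and 0 value columns went unused. Gene names come from GEO's annotation of the platform: 23871 probe sets have 1 symbol, 1842 several and 27904 none listed. Of the names, 88 were updated by Entrez ID and 565 by synonym to RefSeq (GRCh38.p14), and 4 were kept as listed.

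Differences are profound 1 minus control, counted at 2-fold and 1.5-fold with no test. The 2-fold rule was checked on simulated data, with differences added only to brighter genes and all larger than 2-fold. That check does not cover smaller differences, changed dim genes or the 1.5-fold rule. Genes named were taken from the 25 genes of largest difference each way, 15 each way among genes of 8 or more, the RUNX genes with CBFB, and from each of 44 programme and 9 marker lists up to 6 members in the direction of its median and 3 in the other, besides every member at 2-fold. ATF7IP2 and the genes at the limits fall outside this rule and were chosen after their values were seen. The genes compared and the lists were chosen with earlier results of these data known. Promoters (first listed start) matched 7600 of 9598 genes. Alternatives were the level filter, the probe set rule, cyclic loess (limma 3.58.1), protein-coding genes alone and list means. Python 3.11.15 was used.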

Additional observations from a re-analysis of the deposited data

How the results depend on the processing

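No paired analysis was possible because each hairpin has 1 array, and for the same reason no array could be left out. The number of 2-fold higher genes was 16 with a level of 6 or more and 59 with no level filter, against 36 as reported, and that of 1.5-fold higher genes was 148 and 564, against 284; these settings test fewer or more dim genes. Under the other alternatives the 2-fold higher count lay between 30 and 35 and the 1.5-fold higher count between 237 and 281. Over all alternatives run the 2-fold lower count lay between 46 and 82 and the 1.5-fold lower count between 350 and 677. After cyclic loess the difference of a named gene moved by at most 0.02, and CD38, PM20D2, SLPI and SQLE no longer reached 2-fold. With the mean of all probe sets, ACSM3 fell short of 2-fold. No named gene past 1.5-fold changed sign with the mean of all probe sets or cyclic loess. Among list medians of at least 0.2 in size, those that changed sign under an alternative were that of 2 dendritic markers (0.34 with a level of 6 or more, -0.51 as reported) and that of 1 epithelial marker (-0.01 with no filter, 0.50 as reported). Dim probe sets limit the higher genes most, since 16 of 36 lie below 4.5 in control.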
